A study of Mus musculus with 2 samples.

Results

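DNA repair genes were compared between a pool of mouse morulae given double-stranded RNA that targets Nat10 (dsNat10) and a pool given double-stranded RNA that targets GFP (dsGFP), a gene the mouse lacks, as control. The genes were chosen by name, with earlier results of these data known. Of 53 symbols of known repair genes, 52 were found among the 12836 genes of the table, while Lig4 was not analysed here. They were sorted into 8 repair pathways by textbook role. The labels name ICR embryos and give no other allele or agent for either group. Each group is 1 library, so nothing below was replicated, and every difference describes these 2 libraries only.

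The libraries held 28303119 reads in dsNat10 and 29139232 reads in dsGFP. Nat10, the enzyme that writes N4-acetylcytidine in RNA and the target of the injection, had 37 reads in dsNat10 and 886 in dsGFP, 23.7-fold lower (95% counting interval 17.1 to 33.9). Of 12 markers of the morula, 11 were found, with a summed level of 18209 TPM in dsNat10 and 17312 TPM in dsGFP, and Sox2 was not analysed here. Dppa5a made up most of that sum. By the size rule given with the counts 4 of the 11 were lower and 0 higher, with a median log2 ratio of -0.73. The lower ones were Nanog (-1.66, fractional counts), Cdx2 (-1.92), Tead4 (-1.60) and Krt8 (-1.07). Another 4 lay above 0: Klf5 (0.91), Gata3 (0.41), Tfap2c (0.34) and Dppa5a (0.10, fractional counts). Over all 8738 genes to which the rule was applied, 15.3% were lower and 15.2% higher. TPM, transcripts per 1000000, is a level per transcript length and is used below wherever genes are set beside each other. Markers of other cells were found only in part. The 3 of 7 oocyte genes found summed to 44.9 TPM in dsNat10 and 6.52 TPM in dsGFP. By the same rule Zp3 was higher, with 642 reads in dsNat10 and 106 in dsGFP. H1f8 was higher as well, with 286 reads in dsNat10 and 0 in dsGFP. Gdf9, too scarce for the rule, went the other way, with 1 read in dsNat10 and 54 in dsGFP. The 2 of 6 cumulus cell genes found summed to 23.9 TPM in dsNat10 and 27 TPM in dsGFP, and the 4 of 9 blood or fibroblast genes to 75.2 TPM in dsNat10 and 82.6 TPM in dsGFP. Amhr2 made up nearly all of the cumulus cell sum. The blood or fibroblast sum held opposite differences. Pecam1 had 31.13 TPM in dsNat10 and 16.45 TPM in dsGFP. Hba-a1 had 11.32 TPM in dsNat10 and 25.30 TPM in dsGFP, with fractional counts, and Cd68 had 32.74 TPM in dsNat10 and 40.74 TPM in dsGFP. Among these markers of other cells, H1f8 was at 0 in dsGFP, and Inhba and Col1a1 at 0 in dsNat10. Their part in the differences below was not tested. In pooled embryos fewer cells of a type and less RNA per cell cannot be told apart.

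Cells mend DNA by several routes. Damaged or wrong bases are cut out singly (base excision) or with a patch of the strand (nucleotide excision), copying errors are removed by mismatch repair, broken ends are rejoined directly or copied from the sister chromatid by homologous recombination, and the Fanconi proteins and translesion polymerases deal with lesions that stop a replication fork. Cleavage-stage embryos begin with repair transcripts left by the egg before their own genes take over.

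Sequence of these genes is shown first: promoters, because cell cycle motifs there can be set beside the direction of each gene, and coding runs, because they bear on the modification that Nat10 writes. Higher and lower in these passages mean a difference of about 2-fold or more between the libraries, by the rule stated with the counts. RefSeq promoters of GRCm38.p6 were matched for 42 of the 52 genes (not for Rad50, Prkdc, Nbn, Xrcc2, Fancd2, Xpc, Rif1, Ddb2, Rev3l and Ercc3), and the 250 bases before 1 start per gene were searched on both strands, with overlapping matches allowed. The E2F motif TTCCCGC, bound by the factors that drive genes of the S phase, was in 8 of the 42 promoters (19%) and in 3.84% of all 27025 promoters. The GC box GGGCGG was in 64.3% of the 42 and in 32.9% of all, and the CCAAT box CCAAT in 45.2% of the 42 and 34.5% of all. A second E2F form, TTGGCGC, was in 7.14% of the 42 and 2.05% of all, and the Ets motif CCGGAAG in 11.9% of the 42 and 7.05% of all. The 27025 promoters include genes outside the 12836 analysed here. They were not matched to the 42 in expression or GC content. The E2F motif TTCCCGC and the GC box were found in higher members, lower members and those within the limit. The E2F motif was in 2 of 5 promoters of higher members, 2 of 9 of lower members and 4 of 25 of those within the limit. The GC box was in 3 of 5, 6 of 9 and 17 of 25 of the same groups. The last 100 bases before the start are given 5′ to 3′ for the repair scaffold Xrcc1, Rad54l and Mdc1, found lower in dsNat10, and for Ercc5 and Brca2, found higher. Capitals mark these motifs. A match is a description of these letters and not a binding site.
Xrcc1 (chr7:24546599-24546698, plus strand): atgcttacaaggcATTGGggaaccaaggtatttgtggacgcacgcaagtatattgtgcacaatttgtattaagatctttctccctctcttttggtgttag
Rad54l (chr4:116123691-116123790, minus strand): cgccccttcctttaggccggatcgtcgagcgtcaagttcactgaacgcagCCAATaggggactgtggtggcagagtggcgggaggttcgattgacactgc
Mdc1 (chr17:35841398-35841497, plus strand): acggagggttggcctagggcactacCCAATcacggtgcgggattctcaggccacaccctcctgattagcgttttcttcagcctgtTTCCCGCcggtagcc
Ercc5 (chr1:44147644-44147743, plus strand): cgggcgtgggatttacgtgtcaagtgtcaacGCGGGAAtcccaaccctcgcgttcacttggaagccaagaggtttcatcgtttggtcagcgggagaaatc
Brca2 (chr5:150522521-150522620, plus strand): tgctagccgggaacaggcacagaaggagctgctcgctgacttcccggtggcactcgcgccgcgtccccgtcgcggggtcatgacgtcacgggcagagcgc
Mdc1 and Ercc5, which lay on opposite sides in the 2 libraries, both carry the E2F motif in these windows.

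In human cells N4-acetylcytidine in mRNA has been described in coding sequence with a C at every 3 bases. Runs of at least 7 such triplets (21 bases, any frame) were therefore counted in the longest coding sequence of each gene in GENCODE M21. They were in 21 of the 52 repair genes (40.4%) and in 36.5% of the 8477 coding genes with a mean of at least 5 CPM, reads per 1000000. Per kilobase the repair genes held fewer, 0.14 against 0.41 runs, over longer coding sequences (median 2352 against 1344 bases). Among the repair genes, such runs were in 1 of 6 members higher in dsNat10, 6 of 13 lower and 13 of 29 within the limit. Across all genes they were in 45.5% of those higher, 40.4% of those lower and 33.7% of those within. The longest run in these genes, 33 bases over 11 triplets, was in Xrcc1. It is shown with the runs of 4 other members, in GRCm38 coordinates, with the repeated C in capitals.
Xrcc1 (chr7:24567332-24567364, plus strand): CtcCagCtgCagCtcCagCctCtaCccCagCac
Xrcc1 (chr7:24566918-24566938, plus strand): CagCctCctCagCctCtcCag
Sprtn (chr8:124903129-124903149, plus strand): CagCacCagCgtCagCaaCcg
Fancd2 (chr6:113551783-113551803, plus strand): CatCatCtaCagCacCagCac
Brca2 (chr5:150550897-150550917, plus strand): CgaCatCtcCgtCtgCagCca
Lig3 (chr11:82792144-82792167, plus strand): CcaCttCagCtaCttCagCcgCag
All of these lie within 1 exon. Sprtn, Fancd2 and Xrcc1 were lower in dsNat10, Brca2 was higher, and Lig3 was within the limit, so genes with a run were found in each class.

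A gene was called higher or lower when its mean was at least 5 CPM, its log2 ratio of dsNat10 over dsGFP (CPM plus 1) reached 1 in size, and the exact 95% interval of its ratio of counts excluded equality. Of the 52 repair genes 48 had that mean, and of these 13 were lower, 6 higher and 29 within the limit. Over all 8738 genes with that mean, 15.3% were lower and 15.2% higher. The members' shares were 27.1% and 12.5%. The members and the other repair genes set beside them were chosen with earlier results of these data known. Of 97 repair genes outside the 52 with that mean, 16 were lower and 15 higher, close to the shares of all genes (median log2 ratio -0.10). The median log2 ratio of the 48 was -0.30, against 0.01 for all genes, and it was -0.40 over all 52 without the pseudocount and with genes at 0 counted at a floor of 3 reads. The 4 members under the filter were Neil3, Xpa, Rev3l and Fanca.

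**Figure D1:**
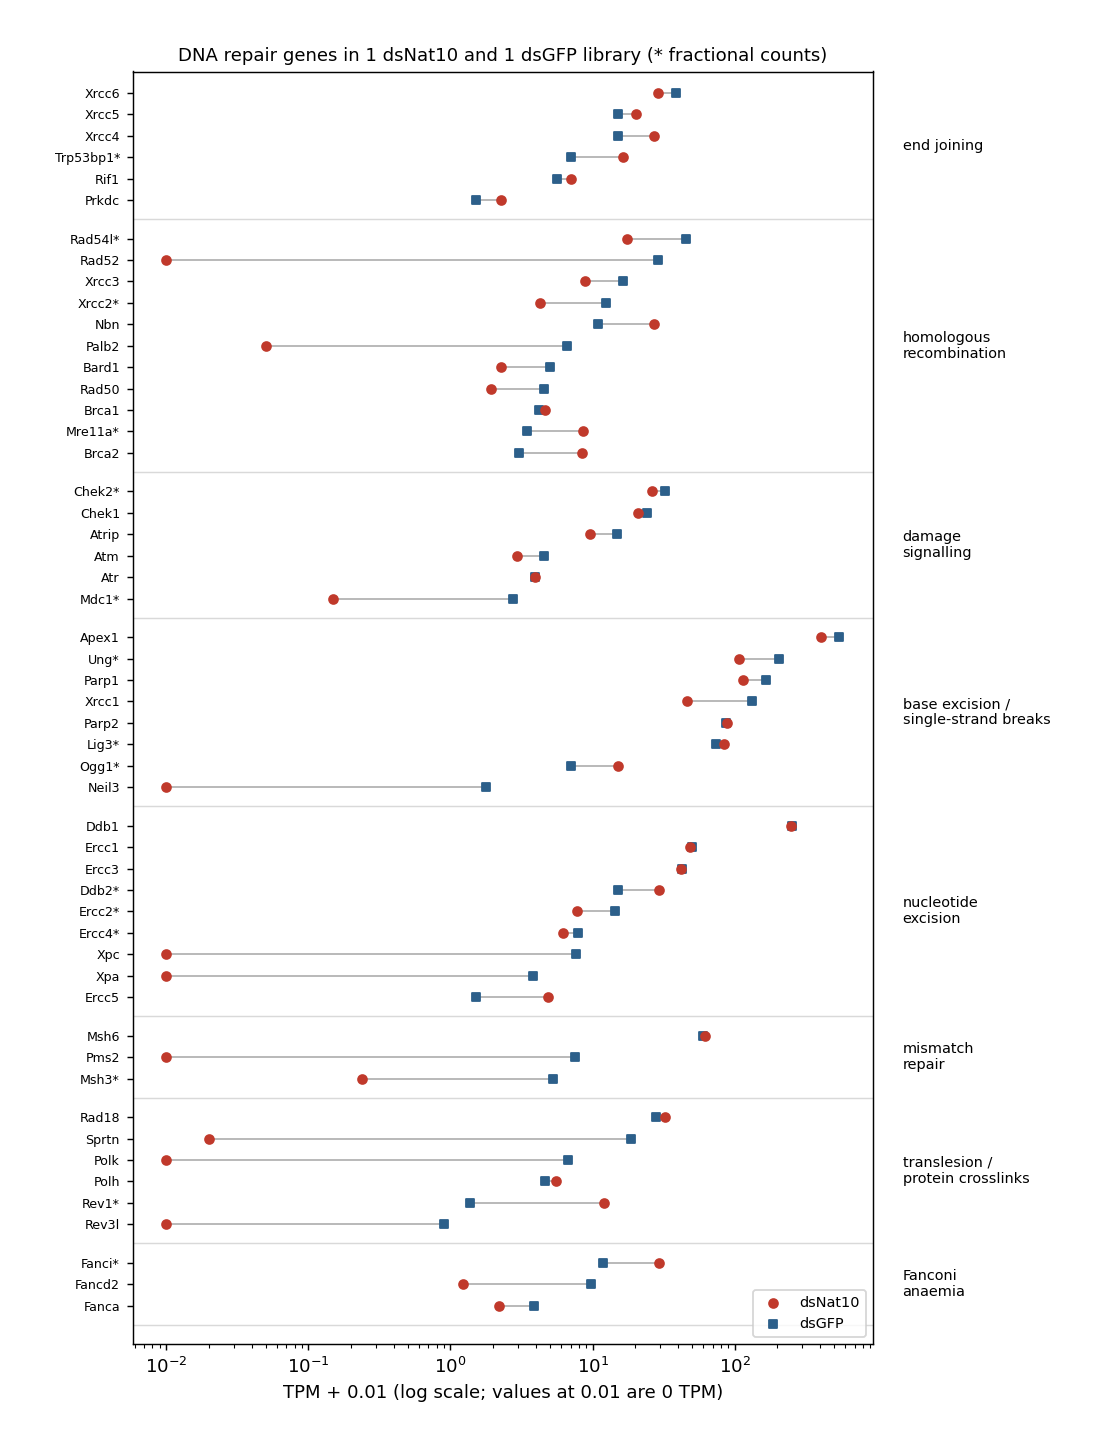
Level of each of the 52 repair genes in TPM plus 0.01 on a log axis, with 1 red circle for the dsNat10 library and 1 blue square for the dsGFP library, grouped by pathway. The symbols of Ddb1, Ercc3, Msh6 and Parp2 nearly coincide, while 7 genes sit at 0 TPM in dsNat10 and none in dsGFP.

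By the mean of both libraries, which a low value in dsNat10 itself lowers, most members called lower were scarce. With a mean of 5 to under 20 CPM, 10 of 20 members were lower and 2 higher, against 27.8% and 26.9% of all genes in that range. From 20 to under 50 CPM, 1 of 16 was lower and 3 were higher, against 15.4% and 16.2% of all genes. With 50 CPM or more, 2 of 12 were lower and 1 higher, against 4.62% and 4.71%, and the median log2 ratio of -0.08 lay next to that of all such genes, -0.02. In dsGFP alone, 6 of the 13 lower members had 20 CPM or more, and 9 of the 13 were under 5 CPM in dsNat10. Reads at 0 in the dsNat10 library were about as frequent as among all genes. Among the 30 members whose dsGFP reads lay from 100 to under 1000, 5 had 0 reads in dsNat10 (16.7%), against 19.2% of all genes in that range. The reverse, 0 in dsGFP with as many reads in dsNat10, held for 0 of 22 members and 5.07% of all genes.

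**Figure D2:**
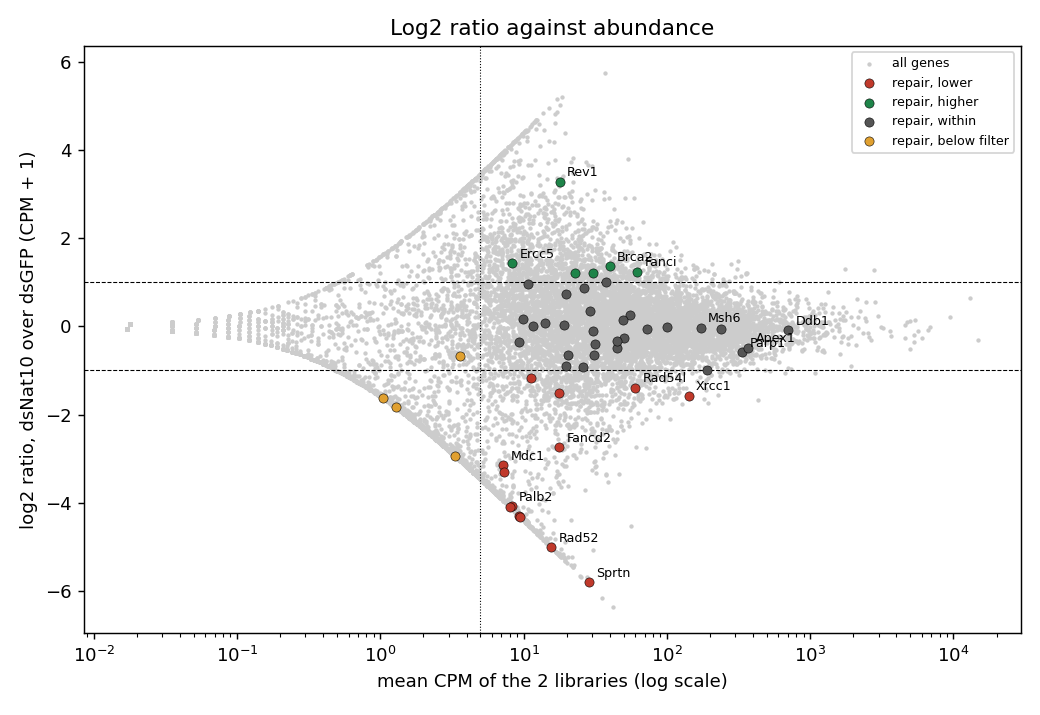
Log2 ratio of dsNat10 over dsGFP (CPM plus 1) against the mean CPM on a log axis, for all genes in grey and the 52 repair genes in colour by call. Dashed lines mark the limit of 1 and the dotted line a mean of 5 CPM. Sprtn and Rad52 lie on the lower edge, where dsNat10 holds 0 or 1 read, and Ddb1, Apex1 and Parp1 lie within the limit at the abundant end.

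Base excision and single-strand break repair was the most abundant pathway, and its genes leaned lower in dsNat10. Its 8 genes summed to 864 TPM in dsNat10 and 1220 TPM in dsGFP, and 6 of 7 with a mean of at least 5 CPM had a log2 ratio below 0 (median -0.48). Xrcc1, the scaffold that holds together the enzymes of single-strand break repair, had 2027 reads in dsNat10 and 6157 in dsGFP. It was 3.01-fold lower (2.86 to 3.16) and the only called gene of this pathway. Its partner Lig3, the ligase that seals the nick, had 6720 reads in dsNat10 and 7095 in dsGFP, with a log2 ratio of -0.06. The counts of Lig3 are fractional. The level of Xrcc1 relative to Lig3 was 0.547 in dsNat10 and 1.79 in dsGFP, in TPM. The length by which Lig3 reads were divided to reach TPM also differed between the libraries (ratio 0.878).

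The other members of this pathway were within the limit, apart from Neil3, which was under the filter. Apex1, the endonuclease that cuts at sites without a base and the most abundant of the 52 genes, had 407.18 TPM in dsNat10 and 545.32 TPM in dsGFP (log2 ratio of CPM plus 1, -0.48). Ung, the glycosylase that removes uracil, had 107.62 TPM in dsNat10 and 205.58 TPM in dsGFP. Its log2 ratio of -0.99 was just inside the limit, and with DESeq2 size factors Ung was called lower. Parp1, the sensor of strand breaks, had 7658 reads in dsNat10 and 11693 in dsGFP (log2 ratio -0.59), whereas its relative Parp2 had 2832 reads in dsNat10 and 2902 in dsGFP (-0.02). Ogg1, which removes oxidised guanine, had 416 reads in dsNat10 and 203 in dsGFP. Its log2 ratio of 0.95 passed the limit in TPM (1.01). Ung and Ogg1 both have fractional counts. Neil3, a glycosylase of replicating cells, had 0 reads in dsNat10 and 74 in dsGFP. Other genes of this pathway did not share the lean: of 17 found, 3 were higher and 2 lower, with a median of -0.03. The uracil glycosylase Smug1 was 3.83-fold higher (3.51 to 4.18), with 2499 reads in dsNat10 and 659 in dsGFP. Mutyh was 3.31-fold higher (3.05 to 3.60), with fractional counts. The 2 lower genes, named after their values were seen, were Tdg and Mpg. Tdg had 1 read in dsNat10 and 478 in dsGFP, 473-fold lower (84.5 to 18726) with fractional counts. Mpg was 4.56-fold lower (3.83 to 5.47).

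In homologous recombination 5 of 11 genes were lower and 3 higher, and partners of the same complex were found on opposite sides. Most of the 11 had a mean of 5 to under 20 CPM. In that range 27.8% of all genes were lower and 26.9% higher. Whether partners differed more often than other genes was not tested. Rad52, which anneals single strands, had 0 reads in dsNat10 and 902 in dsGFP, at least 242-fold lower. Palb2, the bridge between Brca1 and Brca2, had 1 read in dsNat10 and 478 in dsGFP, 473-fold lower, with an interval from 84.5 to 18726. Brca2 itself, which loads the recombinase on single strands, had 1661 reads in dsNat10 and 635 in dsGFP and was 2.64-fold higher (2.41 to 2.90). Brca1, at the other end of that bridge, had 548 reads in dsNat10 and 545 in dsGFP (log2 ratio 0.02).

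The complex that binds broken ends was divided in the same way. Rad50, its ATPase, had 185 reads in dsNat10 and 460 in dsGFP, 2.46-fold lower (2.07 to 2.94). With 1 added to each value, Rad50 was within the limit in TPM (-0.93) and FPKM (-0.85). As deposited, Rad50 had 1.92 TPM in dsNat10 and 4.55 TPM in dsGFP. Nbn, the regulatory subunit of the complex, had 1223 reads in dsNat10 and 517 in dsGFP, 2.39-fold higher (2.15 to 2.65). Mre11a, the nuclease of the complex, had 925 reads in dsNat10 and 390 in dsGFP, 2.40-fold higher (2.13 to 2.70) with fractional counts. The level of Rad50 relative to Nbn was 0.0706 in dsNat10 and 0.416 in dsGFP, in TPM. Rad54l, a motor protein that acts on the recombinase filament and the most abundant gene of this pathway by the mean TPM of both libraries, had 939 reads in dsNat10 and 2525 in dsGFP, 2.66-fold lower (2.47 to 2.87). Xrcc2, a relative of the recombinase, had 248 reads in dsNat10 and 771 in dsGFP, 3.08-fold lower (2.66 to 3.56). Both of these have fractional counts. Xrcc3 had a log2 ratio of -0.89 and Bard1, the partner of Brca1, of -0.35. Of 18 other genes of recombination 4 were lower and 2 higher (median 0.03), and among them Exo1, which resects ends, was 3.87-fold lower (3.49 to 4.31) and Rbbp8, which starts resection, 2.70-fold higher (2.43 to 3).

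In end joining none of the 6 genes was called, and 5 of 6 had a log2 ratio above 0 (median 0.29). Base excision, with 1 of 7 called, and damage signalling, with 1 of 6, were close to this. The difference between pathways was not tested. Xrcc6 and Xrcc5 encode the Ku pair that caps broken ends. Xrcc6, the most abundant gene here, had 28.79 TPM in dsNat10 and 38.95 TPM in dsGFP (log2 ratio of CPM plus 1, -0.49), and Xrcc5 had 20.31 TPM in dsNat10 and 15.19 TPM in dsGFP (0.34). Prkdc, the kinase that Ku recruits, had 336 reads in dsNat10 and 337 in dsGFP, and Xrcc4, the partner of the sealing ligase, had 714 reads in dsNat10 and 419 in dsGFP (0.74). Trp53bp1, which shields ends from resection, had 1439 reads in dsNat10 and 714 in dsGFP. Its log2 ratio lay just under the limit of 1 and passed it with plain totals (1.02), in TPM (1.12), in FPKM (1.05) and with a pseudocount of 0.5 CPM (1.01). Its counts are fractional. Rif1, which acts with it, had a log2 ratio of 0.25. Of 10 other genes found, 2 were lower and 1 higher. The polymerase Poll had 0 reads in dsNat10 and 848 in dsGFP (at least 227-fold lower), and Shld1 was 2.40-fold lower (1.98 to 2.91). The higher gene, named after its values were seen, was the polymerase Polm, with 335 reads in dsNat10 and 20 in dsGFP, 16.9-fold higher (10.8 to 28.1).

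**Figure D3:**
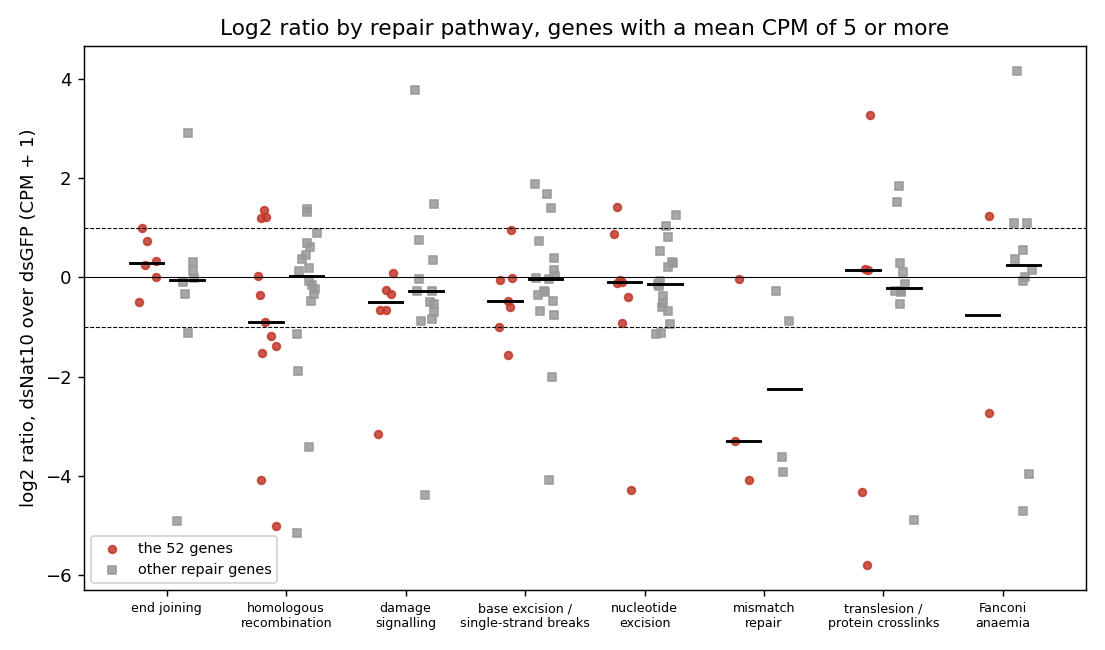
Log2 ratio of dsNat10 over dsGFP (CPM plus 1) for the repair genes (red circles) and other repair genes (grey squares) with a mean of at least 5 CPM, by pathway. Bars are medians and dashed lines mark the limit of 1. End joining has no red circle outside the limit, and mismatch repair has 2 of 3 below it.

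Of 6 genes of damage signalling 1 was lower, and the 4 kinases and Atrip were within the limit. Mdc1, which gathers repair factors on marked chromatin, had 19 reads in dsNat10 and 397 in dsGFP, 20.7-fold lower (13.1 to 34.7) with fractional counts. Atm and Atr are the kinases that answer breaks and stalled forks. Atm had 681 reads in dsNat10 and 1105 in dsGFP (log2 ratio -0.66) and Atr had 416 reads in dsNat10 and 397 in dsGFP (0.08), while Atrip, which brings Atr to single strands, had 444 reads in dsNat10 and 727 in dsGFP (-0.66). Of the checkpoint kinases below them, Chek1 had a log2 ratio of -0.26 and Chek2 of -0.33. Chek2, the most abundant gene of this pathway at 26.38 TPM in dsNat10 and 32.36 TPM in dsGFP, has fractional counts. Of 13 other signalling genes 1 was lower and 2 higher. Telo2, which helps fold these kinases, had 16 reads in dsNat10 and 918 in dsGFP, 56.8-fold lower (34.8 to 99.8), and the mitotic inhibitor kinase Wee1 was 3.07-fold higher (2.59 to 3.65).

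In nucleotide excision repair the abundant genes were close to equal and 2 of the factors that find and check a lesion were at 0 in dsNat10. Ddb1, which feeds ultraviolet damage to a ubiquitin ligase, had 249.66 TPM in dsNat10 and 254.83 TPM in dsGFP. Ercc1 and Ercc3, a nuclease partner and a helicase, had log2 ratios of -0.11 and -0.05. Xpc, the sensor of distorted DNA, had 0 reads in dsNat10 and 537 in dsGFP, at least 144-fold lower. Xpa, which checks the lesion, had 0 reads in dsNat10 and 60 in dsGFP and was under the filter. Ercc5, the nuclease that makes the cut on one side of the lesion, had 360 reads in dsNat10 and 117 in dsGFP, 3.11-fold higher (2.52 to 3.86). Ddb2, the damage-binding partner of Ddb1, had 982 reads in dsNat10 and 529 in dsGFP (0.87), Ercc2 had a log2 ratio of -0.91 and Ercc4 of -0.40, all with fractional counts. Over the 8 genes with a mean of at least 5 CPM the median was -0.10, and over 17 other genes of the pathway -0.14, with 2 higher and 2 lower. Cul4a, the scaffold of that ligase, was 2.49-fold higher (2.21 to 2.80), and Ercc6, which acts at stalled polymerases, 2.32-fold lower (2 to 2.71) with fractional counts.

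Mismatch repair was divided by abundance. Msh6, the subunit that recognises single mismatches, had 4864 reads in dsNat10 and 5007 in dsGFP (log2 ratio -0.03). Msh3, which replaces it in the complex for longer loops, had 15 reads in dsNat10 and 406 in dsGFP, 26.8-fold lower (16.1 to 48.3), with fractional counts. Pms2, the nuclease subunit that acts after recognition, had 0 reads in dsNat10 and 464 in dsGFP, at least 124-fold lower. Among other genes of the pathway 4 of 5 had a mean of at least 5 CPM. Mlh3 was 17.3-fold lower (13.5 to 22.7), and Pms1 had 0 reads in dsNat10 and 408 in dsGFP (at least 109-fold lower). The others with that mean were within the limit.

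Genes that let forks pass damage held both extremes of the whole set. Sprtn, a protease that removes proteins crosslinked to DNA, had 1 read in dsNat10 and 1637 in dsGFP, 1620-fold lower, with an interval from 290 to 64037. Polk, a translesion polymerase, had 0 reads in dsNat10 and 546 in dsGFP, at least 146-fold lower. Rev3l, the catalytic subunit of another such polymerase, had 0 reads in dsNat10 and 191 in dsGFP and was under the filter. Rev1, the scaffold of these polymerases, had 951 reads in dsNat10 and 73 in dsGFP, 13.2-fold higher (10.4 to 16.9) with fractional counts, and it was the highest of the 52. Polh, the polymerase that copies past ultraviolet damage, had 302 reads in dsNat10 and 268 in dsGFP (0.17), and Rad18, the ubiquitin ligase that calls these polymerases to the fork, had 32.33 TPM in dsNat10 and 27.74 TPM in dsGFP (0.15). Of 12 other genes, Shprh and Hltf, a pair of ligases of the same route, were 3.76-fold (3.41 to 4.15, fractional counts) and 3.02-fold higher (2.69 to 3.40), and Smarcal1, named after its values were seen, was the 1 lower gene.

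In the Fanconi anaemia pathway both subunits of a clamp lay on opposite sides. Fancd2 had 111 reads in dsNat10 and 915 in dsGFP, 8.16-fold lower (6.69 to 10), while Fanci, which pairs with it on crosslinked DNA, had 2508 reads in dsNat10 and 1058 in dsGFP, 2.39-fold higher (2.23 to 2.58) with fractional counts. Their ratio was 0.0418 in dsNat10 and 0.826 in dsGFP, in TPM. Fanca, of the complex that marks this pair with ubiquitin, had 72 reads in dsNat10 and 134 in dsGFP and was under the filter. Of 13 other genes 3 were higher and 2 lower, among them Faap20, 2.15-fold higher (2.05 to 2.26), and Fancg, 2.18-fold higher (2.01 to 2.35), both of that complex. The other three, named after their values were seen, lay further out. Faap100 had 913 reads in dsNat10 and 24 in dsGFP, 38.4-fold higher (25.7 to 60.3). Slx4 had 1 read in dsNat10 and 752 in dsGFP, 744-fold lower (133 to 29438). Fancb had 0 reads in dsNat10 and 420 in dsGFP, at least 112-fold lower.

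Fractional counts and gene overlap bear on several of these values. Of the 52 genes 15 have fractional counts in at least 1 library, including 4 of the 13 lower and 3 of the 6 higher members. In GENCODE M21, exons of 10 of these 15 overlap a protein-coding gene on the opposite strand, against 10 of the 37 with whole counts. The overlaps include Rev1 with Eif5b, Fanci with Polg, Mre11a with Ankrd49, Trp53bp1 with Tubgcp4 and Rad54l with Lrrc41. SMART-seq2 libraries do not mark strand, so reads of such pairs cannot be told apart. Of the 9 lower members with whole counts, Pms2 overlaps Rsph10b and Gm42421 on the same strand, and on the opposite strand Fancd2 overlaps Fancd2os, Sprtn the antisense gene Gm45709 and Palb2 the pseudogene Gm16326.

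For some genes the length by which the authors divided reads to reach TPM differed between the libraries. Dividing reads by TPM, scaled to the median of all genes, gives that length as a ratio of dsNat10 over dsGFP. It was off by more than 10% for 4 of 41 repair genes with at least 50 reads and 0.5 TPM in each library, and for 8.29% of all 8254 such genes. For Bard1 the ratio was 1.77, so that its 230 reads in dsNat10 and 304 in dsGFP became 2.26 TPM in dsNat10 and 5.02 TPM in dsGFP. Rev1 had a ratio of 1.54. For Prkdc it was 0.701, so that near-equal reads became 2.26 TPM in dsNat10 and 1.51 TPM in dsGFP, and for Lig3 it was 0.878, which turned its small difference round to 84.59 TPM in dsNat10 and 74.52 TPM in dsGFP. How the lengths were set was not stated.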

How the data were processed

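Per the labels, polyadenylated RNA of pooled morulae was made into SMART-seq2 libraries, which amplify full-length cDNA by PCR, and sequenced with paired ends. Trim Galore, HISAT with the GRCm38 genome, and HTSeq are the trimming, mapping and counting tools, per the submitters' processing notes (versions and annotation: not given in the sources used here). Estimated counts were deposited without normalization and are fractional for 23.2% of genes, and the deposited FPKM and TPM are divided by gene length and library size. HTSeq usually gives whole numbers, and the origin of the fractional values was not stated.

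Counts were rounded and scaled to CPM by TMM (edgeR 4.0.16, R 4.3.3), which moved log2 ratios by -0.03. Ratios are printed with exact Clopper-Pearson 95% intervals. For a gene at 0 only the lower limit of that interval is given, as a bound (at least so many fold). Intervals and bounds cover counting error only, since reads amplified by PCR and lacking molecular identifiers are not independent molecules. No p-value was computed, because 1 library per group allows none. Alternatives were plain totals, DESeq2 1.42.0 size factors, TPM plus 1, FPKM plus 1, a pseudocount of 0.5 CPM, no filter, filters of 20 and 50 CPM, and leaving out fractional counts.

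Named genes are the members that met the size rule or were at 0, the most abundant of each pathway, up to 2 called other repair genes per pathway, and further members for completeness. The 53 members, the pathways and the list of 112 other repair genes (106 found) were chosen with earlier results of these data known. Intervals for TPM ratios between partners were not computed.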

Additional observations from a re-analysis of the deposited data

How the results depend on the processing

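No paired analysis was possible because each group has 1 library. With plain totals, DESeq2 size factors, a pseudocount of 0.5 CPM, TPM, FPKM or no filter, between 12 and 16 members were lower and between 6 and 8 higher, and the median over members stayed between -0.38 and -0.24. Counts and medians depended most on the filter. At 20 CPM or more, 3 members were lower and 4 higher, the median was -0.10, and 11 other repair genes were called, against 31 of 97 at 5 CPM. At 50 CPM or more these values were 2, 1, -0.08 and 4, while 4.62% of all such genes were lower and 4.71% higher. Without fractional counts 3 members were higher. The pathway medians rest on few genes. Fewer genes enter at the higher filters by construction. TPM and FPKM also had 1 added before the ratio, which draws ratios of low values toward equality. The cause of the other shifts was not tested. Homologous recombination, at -0.89, became 1.21 at 20 CPM or more, -1.39 at 50 CPM or more and -0.62 without fractional counts. Translesion synthesis, at 0.15, became -1.39 with no filter, -2.83 at 20 CPM or more and -2.08 without fractional counts. The Fanconi anaemia pathway, at -0.75, became 1.24 at both higher filters, -0.52 in TPM, -0.45 in FPKM and -2.74 without fractional counts. Mismatch repair, at -3.30, became -0.03 at both higher filters, -2.36 in TPM, -2.02 in FPKM, -3.83 with a pseudocount of 0.5 CPM and -2.06 without fractional counts. Damage signalling, at -0.50, became -0.39 in TPM and -0.40 in FPKM. Medians of end joining and of both excision pathways moved by at most 0.1. Of 189 values of 28 named members under 9 alternatives, 17 moved by more than 0.5 of the width of their counting interval on the log2 scale. That width is large for genes at 1 read and without limit for genes at 0, so it says little about them. No called member changed sign, and Msh6, within the limit, was at -0.03 and became 0.03 in TPM. Rad50 was the 1 called member to lose its call while still passing the filter. The libraries are close in depth, and the cause of the larger share of genes at 0 in dsNat10 was not tested.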
